A study of Mus musculus with 5 samples.

Results

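Interferon signalling and MHC class I expression were described through 9 genes, Stat2, Irf9, Irf1, Irf7, Ifit1, Bst2, B2m, H2-K1 and H2-D1. They were found by their symbols in the expression tables of 5 libraries, each of which lists 46078 genes. All 9 were listed, and 7 of them had a mean of at least 1 TPM (a gene's share of all transcripts in a library, corrected for its length) and were tested. RNA was sequenced from stem and precursor cells of the neural lineage taken from the subventricular zone (SVZ cells), the region lining the lateral ventricles that holds the stem cells of the adult forebrain. The labels give primary cells of adult female C57BL/6 mice aged 5 to 8 weeks, without a mutation, plated on PDL, while the study's methods give an older age for its SVZ mice. All groups received PBS as a sham exposure, and the labels name no other agent. The RNA came from cells harvested 1 h later in 2 libraries (replicates 1 and 2) and 8 h later in 3 libraries (replicates 13, 14 and 15). In the study, SVZ cells that had not been differentiated were sequenced as a negative control, and each biological replicate of SVZ cells was 1 animal by its methods. The labels differ only in the time after PBS, so the question that can be put to these data is whether the genes differed between 1 h and 8 h. No library without PBS was analysed here, and bulk RNA cannot tell fewer cells of a type from less RNA per cell.

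The libraries fell into 2 sets that cross the time points. Library identifiers in the labels form 2 number series. By the labels, series 1 holds both 1 h libraries and 8 h replicate 14, and series 2 holds 8 h replicates 13 and 15. The series 1 libraries expressed the Y-linked genes Ddx3y, Eif2s3y, Kdm5d and Uty at a summed 138 to 181 TPM with Xist, the RNA of the inactive X chromosome, at no more than 0.0611 TPM, although the labels call all the mice female. The series 2 libraries had Xist at 165 and 200 TPM and the 4 Y-linked genes at a summed 0.0253 TPM or less. Mitochondrial transcripts took 10.7% to 11.1% of the TPM in series 1 and 6.23% and 6.30% in series 2. Identifier series, sex-linked expression and mitochondrial share cannot be told apart in these libraries, and the genes are therefore given below with 8 h replicate 14 named apart and, where tested, with the series fitted. Only 8 h replicate 14 is an 8 h library of series 1, so a change with the series fitted rests on that library. The series of an 8 h library rests on its name. The 8 h names of the count columns and of the TPM tables did not match, as described at the end. All 8 precursor cell markers tried were expressed in every library, from Pax6 at 9.09 to 17.5 TPM and Sox2 at 181 to 228 TPM to Fabp7 at 7679 to 10076 TPM.

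Interferons are secreted proteins that cells release on meeting a virus. Type I interferons bind a receptor built from Ifnar1 and Ifnar2, whose kinases Jak1 and Tyk2 phosphorylate STAT proteins, Stat2 among them. Phosphorylated STATs join Irf9 to form the complex ISGF3, which binds the interferon-stimulated response element (ISRE) and turns on antiviral genes. Interferon gamma acts through Ifngr1 and Ifngr2 on STAT pairs, which bind the gamma-activated site (GAS) of genes such as Irf1. MHC class I molecules show peptides from inside the cell to cytotoxic T cells. Each consists of a heavy chain, such as those encoded by H2-K1 and H2-D1, and the light chain beta-2-microglobulin encoded by B2m. Neural cells are known for low class I expression at rest, which interferon raises.

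The promoters of 6 of the genes are shown, all of which hold matches to elements known from interferon and class I regulation. Irf1 also holds matches, described below, and its promoter is not shown. Each is the run of 250 bases before a transcription start of RefSeq on GRCm38.p6, written 5′ to 3′ on the gene's strand. Capitals mark matches, on either strand, to 4 short motifs that were chosen after the sequences had been seen. These are the ISRE core GAAANNGAAA, the GAS TTCNNNGAA, the kappa B site GGGATTCCC and the letters GTTTCACTT of the class I response element.
Stat2, chr10:128270248-128270497, plus strand: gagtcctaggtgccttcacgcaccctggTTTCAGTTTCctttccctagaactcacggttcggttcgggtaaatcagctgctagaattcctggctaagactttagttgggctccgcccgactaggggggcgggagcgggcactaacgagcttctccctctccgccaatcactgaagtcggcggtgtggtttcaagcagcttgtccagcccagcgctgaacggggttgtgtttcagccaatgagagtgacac
Ifit1, chr19:34640639-34640888, plus strand: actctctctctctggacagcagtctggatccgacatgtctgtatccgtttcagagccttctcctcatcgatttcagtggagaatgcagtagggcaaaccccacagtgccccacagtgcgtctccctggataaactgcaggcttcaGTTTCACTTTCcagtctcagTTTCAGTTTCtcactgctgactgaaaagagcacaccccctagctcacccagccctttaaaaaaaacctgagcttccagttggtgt
Bst2, chr8:71537473-71537722, minus strand: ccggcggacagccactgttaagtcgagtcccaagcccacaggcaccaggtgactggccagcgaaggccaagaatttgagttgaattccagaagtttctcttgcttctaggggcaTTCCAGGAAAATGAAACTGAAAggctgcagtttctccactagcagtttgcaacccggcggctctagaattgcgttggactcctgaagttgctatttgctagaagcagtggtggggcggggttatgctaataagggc
B2m, chr2:122147437-122147686, plus strand: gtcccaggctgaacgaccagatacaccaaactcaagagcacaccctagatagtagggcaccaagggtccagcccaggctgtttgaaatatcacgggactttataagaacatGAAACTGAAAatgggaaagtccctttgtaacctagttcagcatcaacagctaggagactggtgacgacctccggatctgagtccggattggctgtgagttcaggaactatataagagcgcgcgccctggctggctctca
H2-K1, chr17:34000334-34000583, minus strand: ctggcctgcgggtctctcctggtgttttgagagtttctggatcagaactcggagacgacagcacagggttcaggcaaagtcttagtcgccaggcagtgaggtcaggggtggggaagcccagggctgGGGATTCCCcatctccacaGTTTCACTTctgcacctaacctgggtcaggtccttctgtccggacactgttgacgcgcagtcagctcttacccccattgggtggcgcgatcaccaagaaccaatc
H2-D1, chr17:35262844-35263093, plus strand: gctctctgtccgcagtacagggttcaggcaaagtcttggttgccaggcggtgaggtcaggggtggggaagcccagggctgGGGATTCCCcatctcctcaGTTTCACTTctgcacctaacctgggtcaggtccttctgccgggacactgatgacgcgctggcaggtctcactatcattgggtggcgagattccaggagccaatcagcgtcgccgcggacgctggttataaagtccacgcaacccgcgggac

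The ISRE core was present in the windows of 4 of the 9 genes, counting all RefSeq starts and 50 bases past each start. Stat2 and B2m had 1 match each, and Ifit1 and Bst2 had 2 each. Of 32851 promoter windows of the same length 3.44% held this motif, and of 27025 genes 3.99% did in any of their windows. In Ifit1 the matches ran from -104 to -95 and from -85 to -76 relative to the start, and the first of them overlaps GTTTCACTT. In Bst2 the matches overlap each other, and the first also overlaps a GAS match. The GAS letters were found in Irf1 and Bst2 and in 8.30% of all windows (9.55% of genes).

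H2-K1 and H2-D1 held no match to the ISRE core as written, which does not show that they lack an ISRE. They carried a pair of the other motifs searched. Their windows held the kappa B site and, 10 bases further on, GTTTCACTT, which Ifit1 also held. These motifs were present in 0.353% and 0.399% of all windows (0.414% and 0.474% of genes). The H2-K1 and H2-D1 windows also shared an identical run of 47 bases around the kappa B site, and the genes lie 1.26 Mb apart on chromosome 17. The H2-D1 window lies within the gene as the deposited tables bound it, since these start the gene upstream of the RefSeq start. Irf1 had a kappa B match from -12 to -4. None of the 4 motifs was found in the windows of Irf7 and Irf9, which says only that these letters are absent there. The Irf9 windows also lie within the deposited bounds of the gene, so the sequence upstream of those bounds was not searched.

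**Figure D1:**
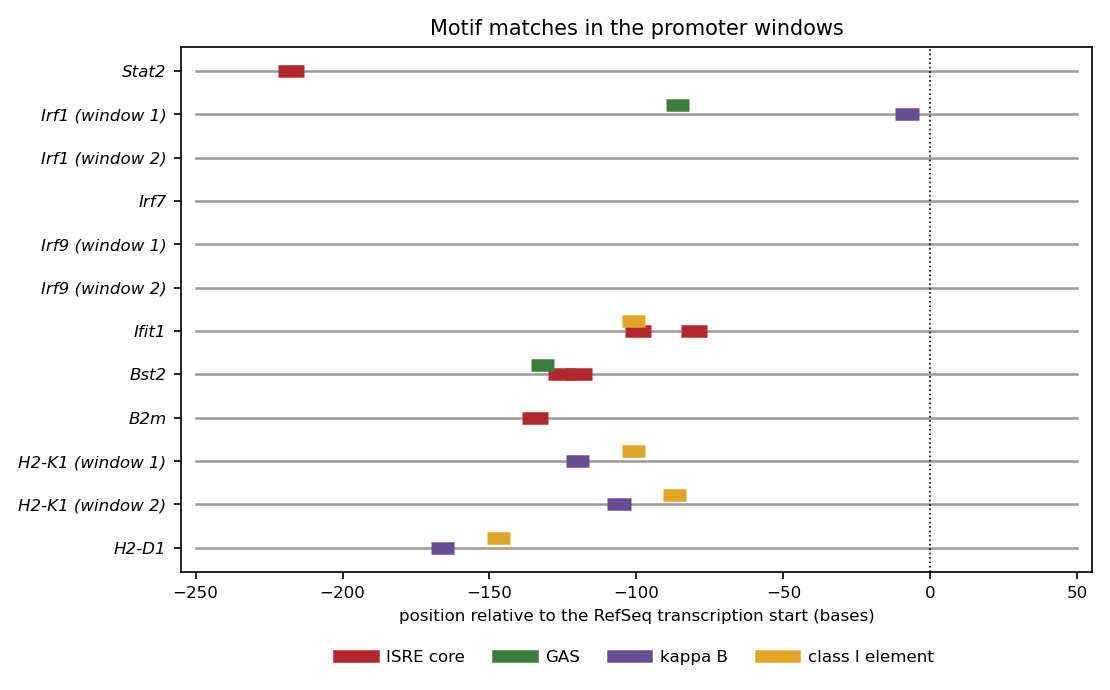
Positions of the motif matches in the promoter windows of the 9 genes, in bases relative to the RefSeq transcription start (0, dotted line). Each grey line is a window of 300 bases and each coloured block a match, and blocks raised above the line keep overlapping or neighbouring matches apart. The ISRE core is in Stat2, Ifit1, Bst2 and B2m, and the kappa B site with the class I element is in H2-K1 and H2-D1.

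The 9 genes spanned a wide range of levels. Over the 5 libraries the mean TPM was 131 for B2m, 40.4 for H2-K1, 11.6 for H2-D1, 8.78 for Irf1, 7.17 for Irf9, 6.49 for Stat2 and 1.34 for Bst2. Irf7 and Ifit1 averaged 0.0965 and 0.0684 TPM. The ranges over libraries did not overlap between B2m and H2-K1, between H2-K1 and H2-D1, or between Stat2 and Bst2. H2-D1, Irf1, Irf9 and Stat2 overlapped their neighbours in this order, as did Bst2 with Irf7 and Irf7 with Ifit1. The class I light chain was thus present at a level that 97.1% of the listed genes did not exceed, beside 2 antiviral genes close to 0.

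**Figure D2:**
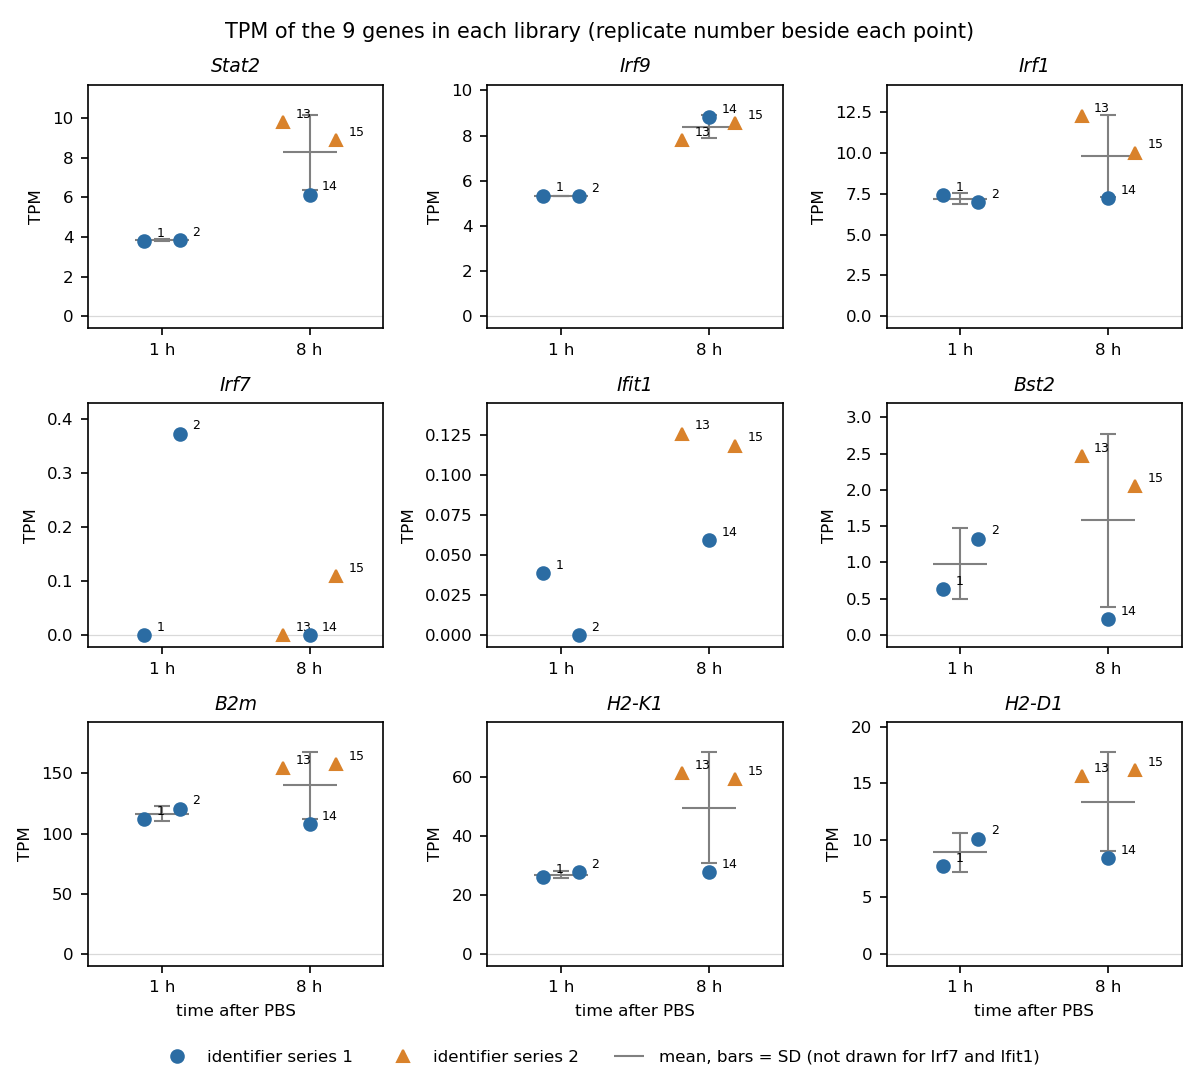
TPM of each of the 9 genes (vertical axes, linear, each with its own scale) in the 1 h and 8 h libraries, with the replicate number beside each point, circles for identifier series 1 and triangles for series 2. Grey dashes with bars are group means with SD (n = 2 and 3). In B2m, H2-K1 and H2-D1 the 8 h replicate 14 sits with the 1 h libraries, and in Irf9 it sits with the other 8 h libraries.

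Stat2 and Irf9, subunits of ISGF3, stood above the 1 h values in each 8 h library, and neither passed the test. Stat2 (ENSMUSG00000040033, chromosome 10, 128270576 to 128292849, plus strand) had 3.80 and 3.86 TPM at 1 h, against 9.80, 6.14 and 8.88 TPM at 8 h in replicates 13, 14 and 15. The 8 h replicate 14 was the lowest of the 8 h libraries and still stood above both 1 h libraries, at 1.60 times their mean, against 2.44 times for replicates 13 and 15. The group means were 3.83 ± 0.0461 (SD, n = 2) and 8.27 ± 1.90 TPM (SD, n = 3). The log2 fold change on log2(TPM + 1), 8 h minus 1 h, was 0.92 ± 0.21 (SE), with a 95% confidence interval of 0.40 to 1.44 and a limma adjusted p of 0.289. Fitted with the identifier series, the change came to 0.56 (limma adjusted p of 0.423). Stat2 therefore did not pass the thresholds (adjusted p no higher than 0.05, log2 fold change beyond 1 in either direction), which 0.0433% of the 13870 genes tested passed.

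Irf9, the DNA-binding subunit of ISGF3 (ENSMUSG00000002325, chromosome 14, 55603571 to 55610030, plus strand), had 5.34 and 5.32 TPM at 1 h, against 7.81, 8.82 and 8.57 TPM at 8 h. Here the 8 h replicate 14 was the highest library, and the groups did not overlap. Its log2 fold change was 0.57 ± 0.14 (SE), with an interval of 0.23 to 0.91 and a limma adjusted p of 0.298. Fitting the identifier series as a term gave 0.63, and leaving out 8 h replicate 14 gave 0.54, so Irf9 moved little with either choice. Its limma adjusted p without that library was 0.0383 at a fold change under the threshold. Part of Irf9 is shared with Rnf31, a ubiquitin ligase gene on the same strand, which had 9.12 and 6.92 TPM at 1 h, against 13.4, 10.2 and 10.8 TPM at 8 h. Reads from the overlap cannot be assigned to either gene by strand.

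The balance of the ISGF3 subunits was not the same in all libraries. The TPM ratio of Stat2 to Irf9 was 0.711 and 0.726 at 1 h, 0.696 in 8 h replicate 14, and 1.25 and 1.04 in 8 h replicates 13 and 15. The 3 libraries of series 1 lay together at both times, and those of series 2 above them.

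Irf1, a transcription factor that interferon gamma induces (ENSMUSG00000018899, chromosome 11, 53770014 to 53778374, plus strand), had 7.43 and 6.98 TPM at 1 h, against 12.2, 7.24 and 10.02 TPM at 8 h. Replicates 13 and 15 were above the 1 h libraries, and replicate 14 lay between them. For Irf1 the log2 fold change was 0.37 ± 0.22 (SE), with a limma adjusted p of 0.477. Fitted with the identifier series, it came to 0.0070. Irf7, the factor that amplifies type I interferon production (ENSMUSG00000025498, chromosome 7, 141262706 to 141266481, minus strand), was listed at 0 in 1 h replicate 1 and in 8 h replicates 13 and 14. The other libraries gave 0.373 TPM (1 h replicate 2) and 0.110 TPM (8 h replicate 15). Its mean coverage per base was at most 0.293, and it was below the filter of 1 TPM and was not tested. Phrf1, which lies across Irf7 on the opposite strand, had 26.7 to 36.7 TPM.

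The antiviral targets Ifit1 and Bst2 were low in all libraries. Ifit1, whose product binds foreign RNA (ENSMUSG00000034459, chromosome 19, 34640871 to 34650009, plus strand), had 0.0385 TPM and a listed 0 at 1 h, and 0.126, 0.0593 and 0.118 TPM at 8 h. Coverage per base was at most 0.377, and of its transcript 2.21% of the stretches as long as a read are identical in Ifit1bl2. The order of such values rests on very few reads, and Ifit1 was not tested. Bst2, also called tetherin, holds budding viruses at the cell surface (ENSMUSG00000046718, chromosome 8, 71534264 to 71537437, minus strand). It had 0.638 and 1.33 TPM at 1 h, against 2.47, 0.224 and 2.06 TPM at 8 h. The 8 h group held both the highest and the lowest library, and the groups overlapped. Its log2 fold change was 0.27 ± 0.49 (SE), with a limma adjusted p of 0.796. The sign turned to -0.67 with the identifier series as a term and to -0.014 without 8 h replicate 13.

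In all 3 class I genes the 8 h replicate 14 stood with the 1 h libraries. B2m, the light chain (ENSMUSG00000060802, chromosome 2, 122147686 to 122153083, plus strand), had 112 and 121 TPM at 1 h, against 154, 108 and 157 TPM at 8 h. Replicate 14 was the lowest of all 5 libraries, and replicates 13 and 15 were the highest. For B2m the log2 fold change was 0.24 ± 0.18 (SE), with an interval of -0.20 to 0.69 and a limma adjusted p of 0.541. Fitted with the series, it came to -0.10.

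H2-K1, the K heavy chain (ENSMUSG00000061232, chromosome 17, 33996017 to 34000333, minus strand), had 26.1 and 27.6 TPM at 1 h, against 61.2, 27.8 and 59.2 TPM at 8 h. Replicates 13 and 15 stood at 2.25 times the 1 h mean, and replicate 14 at 1.04 times. The groups did not overlap, but the lowest 8 h library (27.76 TPM) and the highest 1 h library (27.58 TPM) were nearly equal. Between the groups the log2 fold change was 0.78 ± 0.35 (SE), with an interval of -0.07 to 1.62 and a limma adjusted p of 0.414. Fitted with the series, the change came to 0.048, which rests on 8 h replicate 14 against the 1 h libraries.

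H2-D1, the D heavy chain (ENSMUSG00000073411, chromosome 17, 35262730 to 35267499, plus strand), had 7.71 and 10.1 TPM at 1 h, against 15.7, 8.39 and 16.1 TPM at 8 h. Replicate 14 lay between the 1 h libraries, and replicates 13 and 15 were above them. H2-D1 had a log2 fold change of 0.50 ± 0.30 (SE), with a limma adjusted p of 0.482, and of -0.069 once the series was fitted. Of the H2-D1 transcript, 3.44% of the stretches as long as a read are identical in 8 other genes, among them H2-Q6, H2-Q7 and H2-T22, so part of its value depends on how such reads were assigned. No such stretch of the H2-K1 transcript was shared.

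The class I chains did not keep their proportions over the libraries. The TPM ratio of H2-K1 to B2m was 0.233 and 0.228 at 1 h, 0.257 in 8 h replicate 14, and 0.397 and 0.376 in 8 h replicates 13 and 15. Heavy chain transcripts were thus more abundant relative to the light chain in both series 2 libraries than in the series 1 libraries. The ratio of H2-D1 to H2-K1 ranged from 0.256 to 0.368, and was lowest in the series 2 libraries. These ratios were computed for 6 pairs or sums, and they are a description with no test.

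Across the 7 members tested, 0 were called and all 7 had a positive fold change, with a median of 0.50 against 0.10 over all 13870 genes. The members and the further lists below were chosen with earlier results of these data known. Contrasts with all genes are therefore a description. Stat2 and Irf9 had an unadjusted p under 0.05 (0.00511 and 0.00620), which 9.52% of all genes had with a rise. Groups that did not overlap, with 8 h higher, were seen in Stat2, Irf9 and H2-K1, 42.9% of the 7, against 23.7% of all genes. In the other direction they were seen in 0 members, against 9.43% of all genes. With the TPM rescaled by the median ratio over genes, the median of all genes was -0.0042 in place of 0.10, and the fold changes of the 7 genes ranged from 0.13 for B2m to 0.82 for Stat2. The genes with an unadjusted p under 0.05 were then 798 higher and 761 lower, against 1321 and 391 before. The members' median fold change was 0.007 with the identifier series as a term, against 0.013 over all genes.

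The 8 h libraries differed in how far the members stood from 1 h. The median difference from the 1 h mean on log2(TPM + 1) was 0.76 in 8 h replicate 13, 0.007 in replicate 14 and 0.65 in replicate 15. Over all genes these medians were 0.14, 0.013 and 0.15. Over the 8 precursor cell markers they were 0.41, 0.033 and 0.52, and over the 9 sensors and adaptors tested 0.71, 0.18 and 0.58. They were smaller over the 21 other interferon-stimulated genes tested, at 0.38, -0.14 and 0.40. Other class I heavy chain and related genes (n = 7) had 0.24, -0.30 and 0.17, and class I loading and transactivation genes (n = 15) 0.18, 0.033 and 0.19. The part of the precursor markers' difference in that of the members was not tested. Of the 7 members only Stat2, by 0.56, and Irf9, by 0.63, were higher in replicate 14 than the 1 h mean by more than 0.05. Without replicate 14, Stat2 and H2-K1 were called, with log2 fold changes of 1.10 ± 0.13 and 1.14 ± 0.094 (SE) and limma adjusted p of 0.00707 and 0.00295. In that comparison 2.97% of all genes were called higher, and every 8 h library left belonged to series 2 while both 1 h libraries belonged to series 1.

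**Figure D3:**
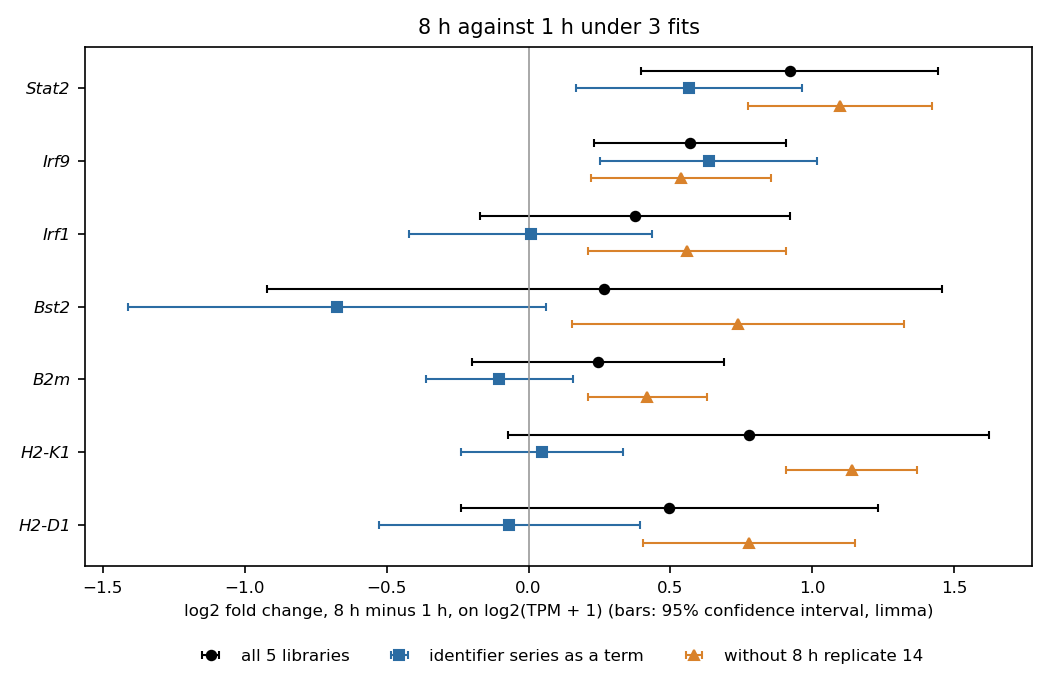
Log2 fold change (8 h minus 1 h) of the 7 genes tested, on log2(TPM + 1), with 95% confidence intervals from limma, for all 5 libraries (circles), with the identifier series as a term (squares) and without 8 h replicate 14 (triangles). Stat2 and Irf9 keep intervals above 0 in the 3 fits. H2-K1, H2-D1, B2m, Irf1 and Bst2 have intervals that include 0 in the first and second. The squares rest on 8 h replicate 14 against the 1 h libraries.

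The wider pathway was described through 9 lists of 121 further genes, of which 70 were tested. Of these 0 were called, 6 (8.6%) were higher and 4 (5.7%) lower at 8 h at an unadjusted p under 0.05, against 9.52% and 2.82% of all genes. Non-overlapping groups with 8 h higher were seen in 15 (21.4%) and with 8 h lower in 7, against 23.7% and 9.43% of all genes. The median fold change was 0.18, and -0.05 with the series as a term. Without 8 h replicate 14, 4 were called, namely Ifitm2, Lgals3bp and H2-Q4, which were higher at 8 h, and Ikbke, which was lower. These are 5.7% of the 70, and over all genes 4.1% were called in either direction in that comparison.

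The ligands were listed at 0 and their receptors were expressed. All 8 interferon genes tried, among them Ifnb1, Ifng and Ifna4, were listed at 0 in the 5 libraries. All 8 receptor chains and kinases were tested and 0 had an unadjusted p under 0.05. The highest was Ifnar1, a chain of the type I receptor, with 71.7 and 67.8 TPM at 1 h, against 101.9, 74.5 and 102.1 TPM at 8 h. Il10rb, a chain of the interferon lambda receptor, had the largest difference in this list (0.49 ± 0.26 SE) and the kinase Jak2 the lowest value (-0.11 ± 0.099 SE).

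Among 8 other STAT and IRF factors 4 were tested. Stat3, the factor for signals of the interleukin-6 family, was the highest of them at 121 to 195 TPM. Irf3, which starts the transcription of type I interferon after virus sensing, had 28.8 and 29.3 TPM at 1 h, against 55.1, 36.9 and 46.1 TPM at 8 h. Its pattern over the libraries was like that of Stat2, with replicate 14 between the 1 h and the other 8 h libraries. The log2 fold change of Irf3 was 0.63 ± 0.18 (SE), with an unadjusted p of 0.0120 and a limma adjusted p of 0.320.

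Of 12 sensors and adaptors of foreign nucleic acid 9 were tested, and 3 were higher and 1 lower at an unadjusted p under 0.05, which 12.3% of all genes had in either direction. Mavs, the mitochondrial adaptor of the RNA sensors, was the highest, with 17.6 and 18.7 TPM at 1 h, against 31.0, 26.1 and 28.0 TPM at 8 h. Ticam1, the adaptor of Tlr3, had the highest fold change of the list, from 8.44 and 10.1 TPM to 17.2, 14.5 and 15.3 TPM. Dhx58, an RNA sensor, was the third that was higher at 8 h. Ikbke, a kinase that activates Irf3, went the other way, from 5.72 and 5.74 TPM at 1 h to 1.65, 3.46 and 2.29 TPM at 8 h. The fold changes were 0.61 ± 0.12 for Mavs, 0.70 ± 0.15 for Ticam1 and -0.99 ± 0.25 (SE) for Ikbke, with limma adjusted p of 0.262, 0.267 and 0.303. Mavs, Ticam1, Dhx58 and Ikbke had groups that did not overlap, without passing the thresholds. Of the 9 tested these are 3 higher and 1 lower at 8 h, against 23.7% and 9.43% of all genes.

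Of 6 feedback inhibitors 5 were tested and 0 had an unadjusted p under 0.05. Trim27 had the highest level and the highest fold change (0.27 ± 0.12 SE), and Socs3, which blocks JAK kinases, had the lowest (-0.33 ± 0.18 SE). Of 41 other interferon-stimulated genes 21 were tested. The other 20, among them Isg15, Rsad2 and Ifit3, averaged under 1 TPM, and Mx1, Oas1a, Oas3 and Sp100 were listed at 0 in every library. The highest was Ifitm3, a membrane protein that blocks virus entry, with 188 and 201 TPM at 1 h, against 269, 153 and 257 TPM at 8 h.

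Ifitm2, of the same family as Ifitm3, had the largest difference of these genes, at 0.88 ± 0.52 (SE) and a limma adjusted p of 0.477. It had 19.1 and 17.8 TPM at 1 h, against 56.2, 15.6 and 47.1 TPM at 8 h, so replicate 14 was the lowest library. Mx2 had the lowest fold change, -0.60 ± 0.22 (SE), with 1.68 and 1.41 TPM at 1 h, against 0.741, 0.913 and 0.398 TPM at 8 h. Lgals3bp, called in the comparison without replicate 14, had 0.701 and 0.751 TPM at 1 h, against 2.74, 0.625 and 4.21 TPM at 8 h.

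Of 18 genes of class I peptide loading and transactivation 15 were tested. At an unadjusted limma p under 0.05, which 12.3% of all genes had in either direction, 1 was higher and 1 lower. Calr, a chaperone of the loading complex, was the highest, at 901 to 1016 TPM. Rfxank, part of a complex that binds class I and class II promoters, was the higher of these (0.35 ± 0.13 SE), and Psme2, a proteasome activator subunit, the lower (-0.32 ± 0.10 SE). Psmb8, Psmb9 and Nlrc5, immunoproteasome subunits and the class I transactivator, were under 1 TPM in every library. Psmb10, a further immunoproteasome subunit, had 19.7 to 26.7 TPM and a fold change of 0.045 ± 0.17 (SE). Among 15 other class I heavy chain and related genes 7 were tested, the highest being Cd1d1 at 26.7 to 33.2 TPM. H2-Q4 had the largest difference (0.70 ± 0.51 SE), with 1.42 and 2.45 TPM at 1 h, against 6.52, 1.36 and 4.85 TPM at 8 h, and H2-T23 the lowest (-0.33 ± 0.29 SE). Of 5 class II genes, H2-Ab1 alone was tested, at 0.706 to 1.98 TPM and a fold change of 0.030 ± 0.28 (SE).

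**Figure D4:**
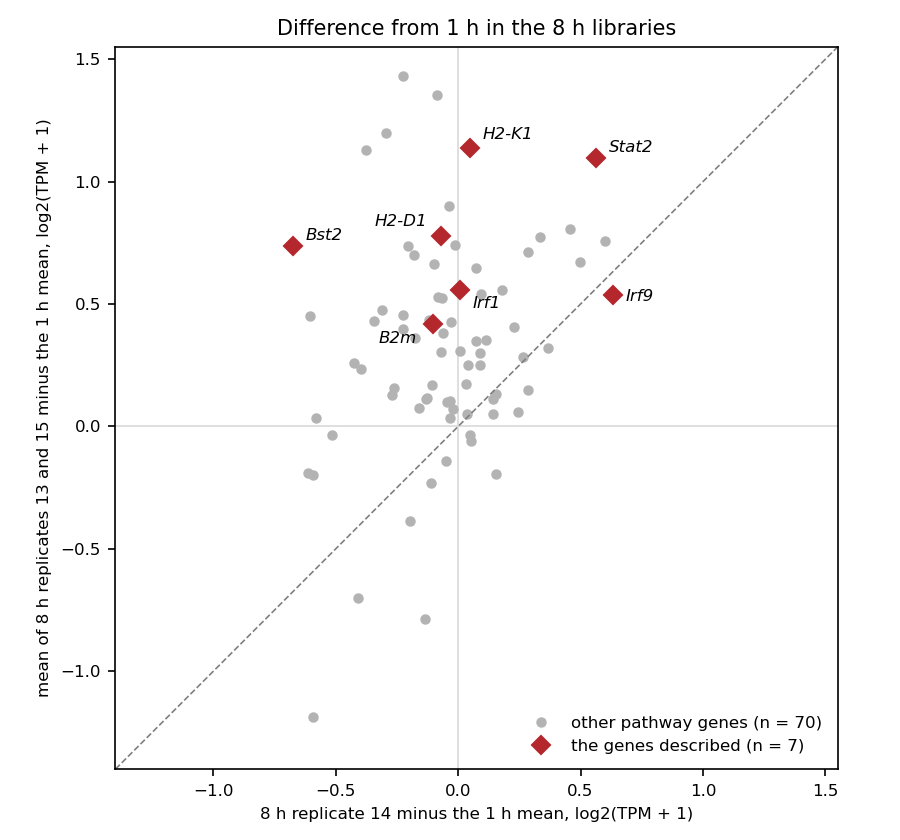
Difference from the 1 h mean on log2(TPM + 1) in 8 h replicate 14 (horizontal axis) and in the mean of 8 h replicates 13 and 15 (vertical axis), for the 7 genes tested (red diamonds) and the 70 further pathway genes tested (grey circles). The dashed line marks equal differences. Irf9 lies near the line, Stat2 is above 0 on both axes, and H2-K1, H2-D1, B2m and Irf1 lie near 0 on the horizontal axis and above 0 on the vertical one.

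Genes whose profiles over the 5 libraries came closest to each member were taken from about 11090 genes with a mean of at least 5 TPM. The measure was the root mean square difference of centred log2(TPM + 1) values. For Stat2 the nearest were Spry4 (0.0326), Fam72a (0.0600) and Alg6 (0.0672), and for Irf9 A430033K04Rik, Thap2 and Lig4 (0.0226 to 0.0313). For H2-K1 they were Sc5d (0.0231), Kcnh2 (0.0409) and Nsdhl (0.0422), with Sc5d and Nsdhl both encoding enzymes of cholesterol synthesis. Sc5d had 60.0 and 62.5 TPM at 1 h, against 133, 63.4 and 133 TPM at 8 h. For H2-D1 they were Sdc3, Ntn1 and Atp1b2, for B2m Ergic1, Tmtc2 and Sulf2, for Irf1 D3Ertd751e, B4galnt1 and Crem, and for Bst2 Plekhf1, Mxd3 and Ece1. None of these genes belongs to the 9 lists, and with 5 libraries the likeness is a description.

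Cells other than precursors could carry class I and interferon genes, so their markers were read in the same libraries. Of 10 microglia and macrophage markers Tmem119, Aif1 and C1qa were listed at 0 throughout, and Cx3cr1, Csf1r, Itgam, Ptprc and Lyz2 did not exceed 0.167 TPM. P2ry12 was higher at 1 h (1.41 and 1.29 TPM) than at 8 h (0.411 to 0.569 TPM). The lymphocyte markers Cd3e, Cd4, Cd8a and Nkg7 were listed at 0. The endothelial markers Cdh5 and Cldn5 were listed at 0, while Flt1 had 9.71 to 13.6 TPM. The markers Tmem119, Aif1, C1qa, Cd3e, Cdh5 and Cldn5 were thus at 0 in libraries with B2m above 108 TPM.

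In the deposited count table only Irf1 and Irf9 of the 9 genes were listed, among 7599 genes in all. Irf1 had 146 and 159 counts at 1 h, against 191, 249 and 295 counts in the columns named 8 h replicates 13, 14 and 15. Irf9 had 152 and 140 counts at 1 h, against 289, 128 and 239 counts at 8 h. Of 7590 genes tested, 0.0% were called by edgeR's quasi-likelihood test, while 199 had an unadjusted p under 0.05. DESeq2 and limma-voom also called 0, with 227 and 178 genes at an unadjusted p under 0.05. The log2 fold change was 0.51 ± 0.26 (SE) for Irf1 and 0.36 ± 0.30 (SE) for Irf9, with an edgeR adjusted p of 0.966 for both.

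The 8 h columns of the count table did not match the TPM tables of the same names. The relative levels in a column and in a TPM table were compared gene by gene within 0.1 on the log2 scale. The columns named 1 h replicates 1 and 2 matched their own tables in 76.7% of the genes. The column named 8 h replicate 13 matched the table of replicate 14 in 77.7%, and the column named replicate 15 matched the table of replicate 13 in 77.7%. The column named replicate 14 matched no table in more than 38.5%. Counts and TPM of Irf1 and Irf9 therefore cannot be set side by side library by library at 8 h. The column totals were 13988166 to 18572154 counts over the listed genes.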

How the data were processed

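Stranded, poly-A selected libraries of 5 SVZ cell samples were read from both ends, and the authors aligned them to GRCm38 with STAR through nf-core/rnaseq and counted them with featureCounts. The deposited count table holds raw counts per gene for 7599 genes, under a filter that the sources used here do not give. The deposited tables per library hold TPM, FPKM and mean coverage per gene, made with a tool that the sources used here do not name. Values were summed per gene identifier (11 to 13 genes per library had several rows). FPKM was used only for the order of levels and coverage only as a depth. Each column was matched to a library by name, leaving 0 unassigned, and 0 rows lacked a gene.

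The 8 h libraries were compared with the 1 h libraries by limma 3.58.1 on log2(TPM + 1) (trend option), using the 13870 genes averaging 1 TPM or more, with Benjamini-Hochberg adjustment over all of them. Fold changes on this scale understate those of low genes. Counts were tested with edgeR 4.0.16 (quasi-likelihood, TMM, filterByExpr) in R 4.3.3, and with DESeq2 1.42.0 and limma-voom as alternatives. A call needed an adjusted p no higher than 0.05 and a log2 fold change beyond 1 in either direction, the study's thresholds for other RNA-seq data. The test scripts were tested on simulated data.

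The 9 genes and the lists were chosen with earlier results of these data known. Named from each list were the gene with the highest mean TPM, those with the largest and smallest fold change, and any called. Irf3, Dhx58 and Psmb10 were singled out after their values were seen. So were the markers and the genes under the filter or called without 8 h replicate 14. A few list genes are left unnamed but enter the counts and medians. Levels are means ± SD. The tables give no counts for most genes, so no counting intervals are given, and precision is limited by 2 and 3 libraries. Promoters were taken from RefSeq (all 9 genes matched), and shared sequence and gene overlaps from GENCODE vM21, whose coordinates differ from the tables for Stat2, Bst2 and H2-K1.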

Additional observations from a re-analysis of the deposited data

How the results depend on the processing

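Of 77 fold changes of the tested genes recomputed from TPM, 68 kept their direction and side of the threshold. Of 22 from counts 21 did. Dropping the fold change threshold changes no fold change, and neither does dropping the filter on low values in TPM. These alternatives count among those that kept their direction. The TPM fit called 6 genes, 0 of them members; it called 0 with no filter on low values and 19 with the identifier series as a term. Leaving out single libraries gave 0 to 568 genes and 0 to 2 members, the highest counts (568 and 2) without 8 h replicate 14; 1 gene was called without 8 h replicate 13 and 0 without either 1 h library or 8 h replicate 15. Stat2 (1.10) and H2-K1 (1.14) passed only without 8 h replicate 14. Fold changes turned negative with the series as a term, and equally in series 1 alone, for Bst2 (-0.67), B2m (-0.10) and H2-D1 (-0.069), and for Bst2 without 8 h replicate 13 (-0.014; over single libraries left out, -0.014 to 0.74). In the counts Irf9 turned to -0.16 when the series, taken from the column names, was fitted. The cause was not tested. The order of the 9 levels was the same in FPKM. No paired analysis was possible because the groups share no replicate number. Only 8 h replicate 14 has an 8 h value in series 1, so the term rests on that library, and the low values of Irf7, Ifit1 and Bst2 are limited by depth.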
